A study of Homo sapiens with 6 samples.

Results

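The genes described here are 10 transporters that carry amino acids across membranes, measured in A375, a human melanoma line whose BRAF gene is mutated. They were chosen by name, with earlier results of these data known, and all 10 are among the 19676 genes that the arrays measured after filtering. Each gene was read from the probe set that names it alone and has the highest mean over the arrays, and SLC1A4, whose probe sets disagree, was also read from each of its 5. There were 6 Affymetrix arrays, 1 per condition, all of the same line grown in serum-containing RPMI1640 medium. At 6 h the cells had received 10 µM vemurafenib with 100 nM AT9283 (called the combination), 10 µM vemurafenib alone, 100 nM AT9283 alone, or the solvent DMSO. At 16 h they had received 10 µM vemurafenib or DMSO. Vemurafenib is an inhibitor of mutant BRAF. AT9283 is a multikinase inhibitor whose targets include JAK2 and the Aurora family. The study is about how these melanoma cells express ATF4. The combination and AT9283 alone at 16 h were not analysed here.

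Amino acid transporters set how much leucine, glutamine, arginine, serine and glycine a cell can draw from its medium. ATF4, a transcription factor that acts in the integrated stress response, is known to raise the transcription of many of them when amino acids run short or when stress kinases phosphorylate eIF2 alpha. MYC is known to raise several in growing tumour cells. The system L exchanger is a dimer of a light chain, SLC7A5, and a heavy chain, SLC3A2, and it trades intracellular glutamine for leucine, which activates mTORC1.

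Values are log2 intensities, and a difference is one array minus another on that scale. There was 1 array per condition, so differences could not be checked against replicates, and the precision is limited by how few arrays there are. "Rose" and "fell" are used where arrays differ by at least 1, which is 2-fold, and the higher of them reaches log2 6 (the floor), which is called the size rule. This threshold describes size and carries no p-value. For scale, the DMSO arrays at 16 h and 6 h differed with an SD of 0.244 across genes at the floor, and the AT9283 and DMSO arrays at 6 h with an SD of 0.127. The median intensity per array lay between 19.79 and 21.29, and 44.7% to 46.1% of genes were at the floor on an array. Of 8 melanocyte lineage markers used, SOX10, MITF and TFAP2A were at the floor on all 6 arrays, S100B on 1 array, and PMEL, MLANA, TYR and S100A1 on none, so the pigment markers lay below the floor. Among 5 markers of other cell types, PTPRC, EPCAM, CDH1 and PECAM1 were at the floor on no array, while COL1A1 lay between 6.75 and 6.95. Since RNA was taken from whole cultures, fewer cells with a transcript and less transcript per cell cannot be told apart.

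All 10 transporters had their highest value of the 6 arrays under vemurafenib at 6 h. Among all 9707 genes at the floor on at least 1 array, 12.1% had their highest value there. SLC6A9 is not among the 9707, and SLC1A4 and SLC43A1 are among them only through vemurafenib arrays. The list was made with earlier results of these data known. Shares of all genes set beside its counts, here and below, are thus a description and not a test. The 10 genes spanned ranges over the arrays of 0.53 (SLC38A1) to 1.79 (SLC1A4). Of these, SLC7A5, SLC3A2, SLC7A1, SLC38A1, SLC38A2, SLC1A5 and SLC36A4, 7 in all, were at the floor on all 6 arrays. SLC1A4 reached the floor on 2 arrays, SLC43A1 on 1, and SLC6A9 on none. Of the 17 member probe sets that reached the floor on some array, 14 were highest under vemurafenib at 6 h. The 17 include those used for the genes other than SLC6A9. The exceptions, 1 probe set of SLC7A1 and 2 of SLC38A1, were all the other probe sets of these genes at the floor. The rest beyond those used were of SLC38A2 and SLC1A4, and those of SLC1A4 reached the floor only under vemurafenib. The count of 14 largely repeats the genes counted above, and no share of all probe sets was set beside it.

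**Figure D1:**
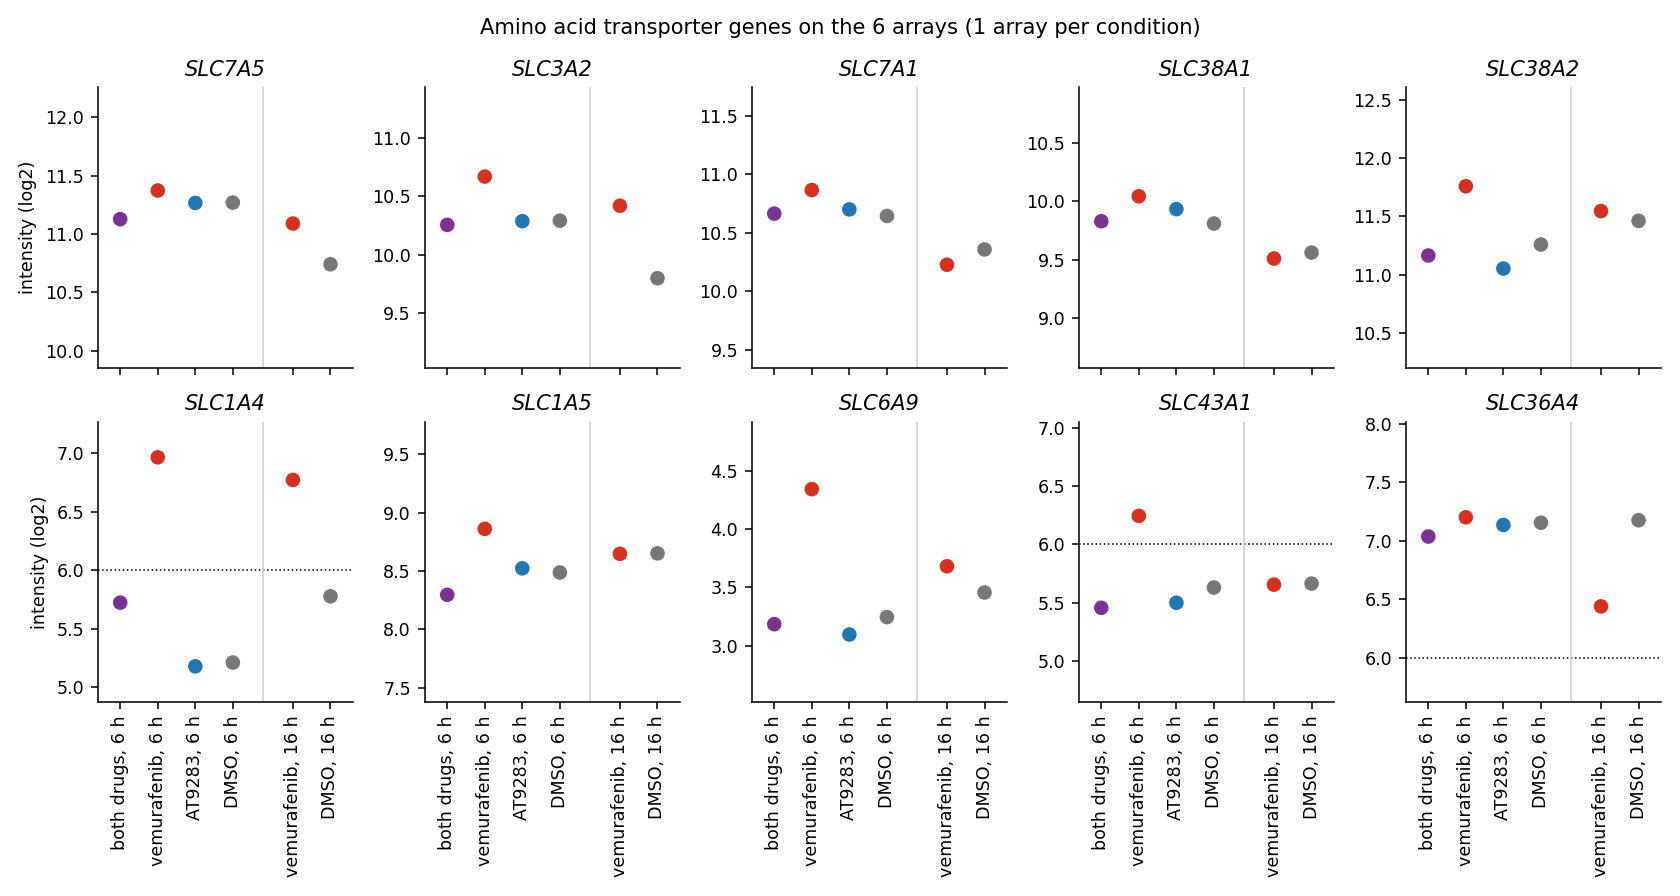
Log2 intensity of each of the 10 genes on the 6 arrays, in panels that all span the same number of log2 units, with the 6 h arrays left of the grey line, the 16 h arrays right of it and the floor of 6 dotted. The red vemurafenib point at 6 h is the highest in every panel. For SLC1A4 both red points, at 6.97 and 6.77, stand apart from the other 4 arrays, and for SLC36A4 (7.20) the margin is small.

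Vemurafenib at 6 h was set against DMSO at 6 h to ask how the transporters differed under the drug. Every one of the 10 genes was higher, by 0.05 (SLC36A4) to 1.76 (SLC1A4), with a median of 0.38. Of the 9 that reached the floor in this comparison, 9 were above 0, against 53.8% of 9095 genes, and 2 were higher by at least 0.5, against 4.56%. Those 2, SLC1A4 and SLC43A1, reached the floor only on the vemurafenib array, so the array on which they were high let them into the count. Of the 7 genes whose mean over the 6 arrays was at the floor, a choice made after seeing the data, 7 were above 0, against 54.2% of 8885 genes, and 0 were higher by at least 0.5, against 4.19%. Only SLC1A4 passed the size rule, 1 of 9, against 1.03% of genes higher and 2.14% lower, and with the floor on the mean 0 of 7 passed. The 9 had a median of 0.37, and all genes at the floor one of 0.02. ATF4 itself was at 12.21 under vemurafenib and 11.22 in DMSO. MYC was at 5.31 under vemurafenib and 7.44 in DMSO. What part either factor had in the transporters' values was not tested.

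SLC1A4, known as ASCT1, exchanges alanine, serine and cysteine, and had the largest difference of the 10 genes under vemurafenib at 6 h, on the probe set used. Its probe set had 5.72 in the combination, 6.97 under vemurafenib, 5.18 under AT9283 and 5.21 in DMSO at 6 h. At 16 h it had 6.77 under vemurafenib and 5.78 in DMSO. The vemurafenib arrays were thus the highest at both times, and the other 4 arrays lay below the floor. SLC1A4 rose under vemurafenib at 6 h by 1.76, a 3.38-fold ratio whose size depends on a DMSO value below the floor. With 16 added to each intensity the difference was 1.41. Of genes at the floor 0.319% had a difference as high as 1.76. At 16 h the difference was 0.996, marginally under the size rule, and 5.21% of genes had one as high.

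The 5 probe sets of SLC1A4 differed in the size of the response. Vemurafenib minus DMSO at 6 h was 2.53 on 209610_s_at, 2.24 on 212810_s_at, 1.76 on 212811_x_at, 1.06 on 209611_s_at and 0.04 on 244377_at. The first 4 each crossed the floor only under vemurafenib. Probe set 244377_at lay between 3.37 and 3.81 on all arrays and was below the floor throughout. At 16 h the same 5 gave 1.09, 0.87, 0.996, 0.43 and -0.17 in that order. The combination was lower than vemurafenib on all 5, by -1.60, -1.27, -1.24, -0.80 and -0.43 in that order. The suffixes _s_at and _x_at mark probe sets that can bind related transcripts, and 244377_at is the only SLC1A4 probe set without such a mark. Without marked probe sets SLC1A4 was at 0.04 under vemurafenib at 6 h and did not pass the size rule, nor did it with a floor of log2 7. Whether other transcripts add to the marked probe sets was not tested.

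**Figure D2:**
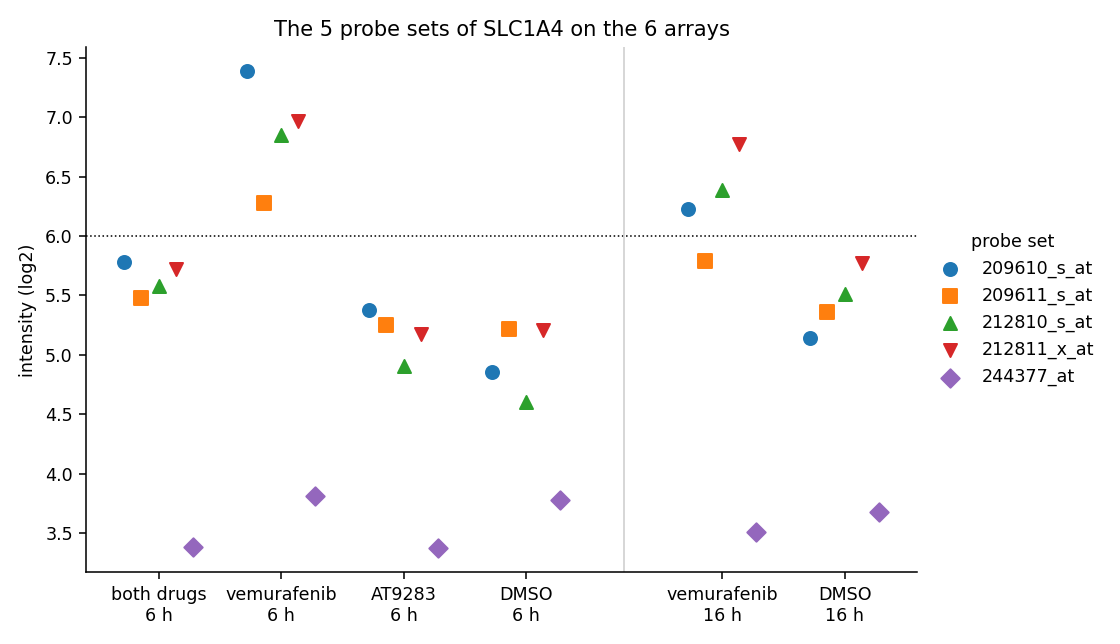
Log2 intensity of each SLC1A4 probe set on the 6 arrays, with the floor of 6 dotted. The 4 others lie highest under vemurafenib at 6 h, between 6.28 and 7.39, while 244377_at stays between 3.37 and 3.81 on every array.

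ATF4 and its partners bind a composite element whose core is read here as TGATGNAA, so the promoters of the genes were searched for it on both strands. RefSeq windows of GRCh38.p14, from 250 bases before to 50 bases after an annotated start, were found for all 10 genes, 18 windows in all. The element was in 5 of the 18 windows and in a window of 5 of the 10 genes, SLC1A4, SLC3A2, SLC7A1, SLC38A1 and SLC1A5. Of 35116 windows of all genes 3.62% held it, and 4.46% of 27305 symbols had it in a window. The 5 stretches are shown beside the vemurafenib differences at 6 h of their genes, which lay between 0.22 and 0.38 except for SLC1A4 (1.76). The capitals mark the element, which reads TTNCATCA where it lies on the opposite strand.
SLC1A4 (chr2:64989149-64989428, plus strand): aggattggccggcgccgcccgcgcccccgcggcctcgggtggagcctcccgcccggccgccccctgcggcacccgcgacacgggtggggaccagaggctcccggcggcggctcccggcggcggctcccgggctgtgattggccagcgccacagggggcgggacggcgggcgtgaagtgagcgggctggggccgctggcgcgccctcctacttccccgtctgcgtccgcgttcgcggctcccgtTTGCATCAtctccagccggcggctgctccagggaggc
SLC3A2 (chr11:62881719-62881748, plus strand): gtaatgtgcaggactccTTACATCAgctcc
SLC7A1 (chr13:29595659-29595808, minus strand): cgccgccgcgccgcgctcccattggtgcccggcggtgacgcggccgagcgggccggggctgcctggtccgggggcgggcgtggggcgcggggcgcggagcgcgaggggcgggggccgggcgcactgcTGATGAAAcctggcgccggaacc
SLC38A1 (chr12:46266487-46266636, minus strand): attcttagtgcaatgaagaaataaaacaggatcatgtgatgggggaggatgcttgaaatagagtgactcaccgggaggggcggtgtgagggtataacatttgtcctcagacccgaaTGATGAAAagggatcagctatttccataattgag
SLC1A5 (chr19:46784785-46784934, minus strand): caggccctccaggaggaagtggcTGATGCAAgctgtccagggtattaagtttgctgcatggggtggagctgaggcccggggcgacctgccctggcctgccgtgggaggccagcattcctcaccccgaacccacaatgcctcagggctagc
In SLC1A4 the element spans bases -7 to 1 around the start of 1 of its 2 windows, and in SLC38A1 bases -4 to 4 around 1 of 2. In SLC7A1 it lies at bases 8 to 15, in SLC3A2 at 38 to 45, and in SLC1A5 at -97 to -90, each counted from the annotated start as base 1. The 5 genes with the letters had vemurafenib differences at 6 h of 1.76 (SLC1A4), 0.38 (SLC3A2), 0.37 (SLC1A5), 0.23 (SLC38A1) and 0.22 (SLC7A1). The 5 without them in these windows had 1.10 (SLC6A9, below the floor), 0.61 (SLC43A1), 0.50 (SLC38A2), 0.10 (SLC7A5) and 0.05 (SLC36A4). Bases outside the windows were not searched, so these genes may hold the element elsewhere. A match is a description of the sequence and not a site of binding.

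SLC1A5, known as ASCT2, is the paralogue of SLC1A4 that imports glutamine. It had 8.30 in the combination, 8.86 under vemurafenib, 8.52 under AT9283 and 8.49 in DMSO at 6 h, and 8.65 under vemurafenib and 8.65 in DMSO at 16 h. The vemurafenib array at 6 h was highest and the combination lowest. Its difference from DMSO was 0.37 at 6 h, a value that 8.44% of genes at the floor reached, and -0.00 at 16 h. Neither passed the size rule.

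SLC7A5, the light chain of the system L exchanger, had 11.13 in the combination, 11.37 under vemurafenib, 11.27 under AT9283 and 11.27 in DMSO at 6 h. At 16 h it had 11.09 under vemurafenib and 10.74 in DMSO. The heavy chain SLC3A2 had 10.25 in the combination, 10.67 under vemurafenib, 10.29 under AT9283 and 10.29 in DMSO at 6 h, and 10.42 under vemurafenib and 9.80 in DMSO at 16 h. In both genes the DMSO array at 16 h was the lowest of the 6. Vemurafenib minus DMSO for SLC3A2 was 0.38 at 6 h and 0.62 at 16 h, and for SLC7A5 it was 0.10 and 0.35. These were the 2 genes of the 10 whose signed vemurafenib difference was higher at 16 h than at 6 h. The control moved as well, since DMSO at 16 h minus DMSO at 6 h was -0.53 for SLC7A5 and -0.49 for SLC3A2, values as low as those of 1.66% and 2.15% of genes at the floor. Vemurafenib at 16 h minus vemurafenib at 6 h was -0.28 for SLC7A5 and -0.25 for SLC3A2. Against the mean of both DMSO arrays the order of the times was the other way round, 0.37 at 6 h and 0.08 at 16 h for SLC7A5, and 0.62 and 0.37 for SLC3A2. Of the 7 genes at the floor in this pair of DMSO arrays 1, SLC7A5, was lower by at least 0.5, against 2.05% of genes, and 0 passed the size rule, against 0.188% higher and 0.0883% lower. Array and time cannot be told apart in it, and no source used here says if both times were normalized as 1 set.

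SLC38A2, known as SNAT2, imports small neutral amino acids with sodium and is known to be induced when amino acids are scarce. It had 11.16 in the combination, 11.76 under vemurafenib, 11.05 under AT9283 and 11.26 in DMSO at 6 h, and 11.54 under vemurafenib and 11.46 in DMSO at 16 h. Vemurafenib at 6 h stood highest. The combination and AT9283 lay under DMSO at 6 h, by -0.09 and -0.21. On the other probe sets of the gene the combination differed from DMSO by -0.27 and -0.23. Its difference under vemurafenib at 6 h was 0.50, which 4.58% of genes at the floor reached, and at 16 h it was 0.08. The 3 probe sets of SLC38A2 gave 0.37, 0.49 and 0.50 at 6 h, and 0.08 to 0.16 at 16 h. Its paralogue SLC38A1, or SNAT1, had 9.83 in the combination, 10.04 under vemurafenib, 9.93 under AT9283 and 9.81 in DMSO at 6 h, and 9.51 under vemurafenib and 9.56 in DMSO at 16 h. For SLC38A1 the 6 h arrays all lay above the 16 h arrays, and its 4 probe sets differed in sign under vemurafenib at 6 h, from -0.13 to 0.23.

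SLC7A1, the importer of arginine and lysine known as CAT1, had 10.66 in the combination, 10.87 under vemurafenib, 10.70 under AT9283 and 10.64 in DMSO at 6 h, and 10.23 under vemurafenib and 10.36 in DMSO at 16 h. As for SLC38A1, both 16 h arrays lay below all 6 h arrays. Its vemurafenib difference was 0.22 at 6 h and -0.13 at 16 h. Its second detected probe set, 212290_at, gave 0.11 and -0.12, and it was highest in the combination (7.33).

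SLC43A1, the facilitative carrier of large neutral amino acids known as LAT3, had 5.46 in the combination, 6.24 under vemurafenib, 5.50 under AT9283 and 5.63 in DMSO at 6 h, and 5.65 under vemurafenib and 5.66 in DMSO at 16 h. The vemurafenib array at 6 h was the only one to cross the floor. Its difference was 0.61 at 6 h and -0.01 at 16 h. SLC6A9, the glycine transporter GlyT1, had 3.18 in the combination, 4.34 under vemurafenib, 3.10 under AT9283 and 3.24 in DMSO at 6 h, and 3.68 under vemurafenib and 3.46 in DMSO at 16 h. It lay below the floor on all arrays, so its difference of 1.10 at 6 h is not counted and depends on values near background: with 16 added to each intensity it was 0.51.

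SLC36A4, a carrier of proline and tryptophan known as PAT4, differed from the others in its 16 h value. It had 7.04 in the combination, 7.20 under vemurafenib, 7.14 under AT9283 and 7.16 in DMSO at 6 h, and 6.44 under vemurafenib and 7.18 in DMSO at 16 h. The other 5 arrays lay within a narrow band, and that of vemurafenib at 16 h lay below it. Its difference was 0.05 at 6 h and -0.74 at 16 h, the lowest of the 10 genes at that time, and 10.5% of genes at the floor were as low. Its other probe set, 230874_at, lay below the floor and gave 0.17 at 6 h and -0.22 at 16 h.

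At 16 h the signs were mixed. Vemurafenib minus DMSO had a median of 0.04 over the 10, with 5 above 0. Of the 8 at the floor 4 were above 0, against 48.9% of 9469 genes. Of the 8, SLC1A4 and SLC3A2, 2 genes, were higher by at least 0.5, against 16% of genes, and SLC36A4 was lower by at least 0.5, against 18%. None passed the size rule, against 5.19% of genes higher and 5.79% lower. These shares are near those of all genes. Between the times the vemurafenib difference became lower for 8 of the 10 genes, with a median change of -0.40. Of the 9 at the floor 7 had a lower one, against 52.8% of 9651 genes, and 3 of them, SLC1A4, SLC43A1 and SLC36A4, by at least 0.5, against 11.8%. SLC1A4 and SLC43A1 entered through vemurafenib arrays alone. None of the 9 changed by 1, against 2.42% of genes higher and 2.4% lower.

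The vemurafenib effect over both times was tested with limma on the 4 vemurafenib and DMSO arrays with time as a block. None of the 9 transporters tested had an adjusted p under 0.05, against 0.332% of genes called higher and 0.839% called lower. At an unadjusted p under 0.05, 2 of the 9 passed, SLC1A4 and SLC3A2. At that threshold 1019 of the 9651 genes tested were higher and 1122 were lower. With both directions counted, 2 of 9 is near the share of all genes. SLC1A4 was higher by 1.38 (SE 0.25, limma adjusted p 0.106) and higher at both times. SLC3A2 was higher by 0.50 (SE 0.15, limma adjusted p 0.179), also at both times. Over the alternatives in which SLC1A4 was tested its limma adjusted p lay between 0.0721 and 0.195. The fit leaves 1 residual degree of freedom, which holds the change of the effect with time and is not replicate error.

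AT9283 alone left the transporters close to DMSO at 6 h. The 10 differences ran from -0.21 (SLC38A2) to 0.12 (SLC38A1), with a median of -0.01. None of the 7 at the floor passed the size rule, against 0.0224% of genes higher and 0% lower, nor did any differ by 0.5, against 0.224% higher and 0.0783% lower. SLC38A2 was the furthest from DMSO, and 2.84% of genes at the floor were as low. Its 3 probe sets gave -0.21 to -0.34.

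The combination was then set against vemurafenib alone at 6 h, to ask whether AT9283 changed what vemurafenib did. All 10 transporters were lower in the combination, by -0.16 (SLC36A4) to -1.24 (SLC1A4), with a median of -0.49. Of the 9 at the floor 9 were below 0, against 42% of 8999 genes. Of the 9, SLC1A4, SLC43A1, SLC38A2 and SLC1A5, 4 genes, were lower by at least 0.5, against 1.46% of genes. SLC1A4 and SLC43A1 again reached the floor only on the vemurafenib array. Of the 7 with their mean at the floor 7 were below 0, against 41.9% of 8885 genes, and SLC38A2 and SLC1A5, 2 of 7, were lower by at least 0.5, against 1.32%. SLC1A4 fell, 1 of 9 over the size rule, against 0.322% of genes lower and 0% higher, and with the floor on the mean 0 of 7 passed. Its combination array was at 5.72, below the floor, so the size of the fall depends on values near background. As low as SLC1A4 were 0.144% of genes at the floor, as low as SLC43A1 (-0.79) 0.545%, as low as SLC38A2 (-0.59) 0.944% and as low as SLC1A5 (-0.56) 1.06%. All genes at the floor had a median of 0.03. SLC3A2 and SLC7A5 differed by -0.41 and -0.25. ATF4 was at 11.83 in the combination and 12.21 under vemurafenib.

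This comparison and vemurafenib minus DMSO use the same vemurafenib array, so a high value on that array would move both. On the arrays without that overlap, the combination minus AT9283 had a median of -0.04 over the 10 genes, with SLC1A4 at 0.55, SLC38A2 at 0.11 and SLC6A9 at 0.09 above 0 and the other 7 below. Of the 7 at the floor 1 was above 0, against 58% of 9073 genes. None of the 7 at the floor passed the size rule, against 0.452% of genes higher and 1.97% lower. The difference of the effects uses the vemurafenib array at 6 h again, on which all 10 genes were highest, so its sign is not independent of the values above. The vemurafenib effect with AT9283 was lower than the effect without it for all 10 genes, by -0.15 (SLC36A4) to -1.21 (SLC1A4). Of the 9 at the floor 9 were below 0, against 45.8% of 9219 genes, and SLC1A4, SLC43A1 and SLC1A5 were lower by at least 0.5, 3 of 9 against 1.42%. Only SLC1A4 was lower by at least 1, against 0.282%. Of the 7 with their mean at the floor 7 were below 0, against 45.7%, and SLC1A5 alone was lower by at least 0.5, against 1.15%. This quantity uses 4 single arrays and was not tested.

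**Figure D3:**
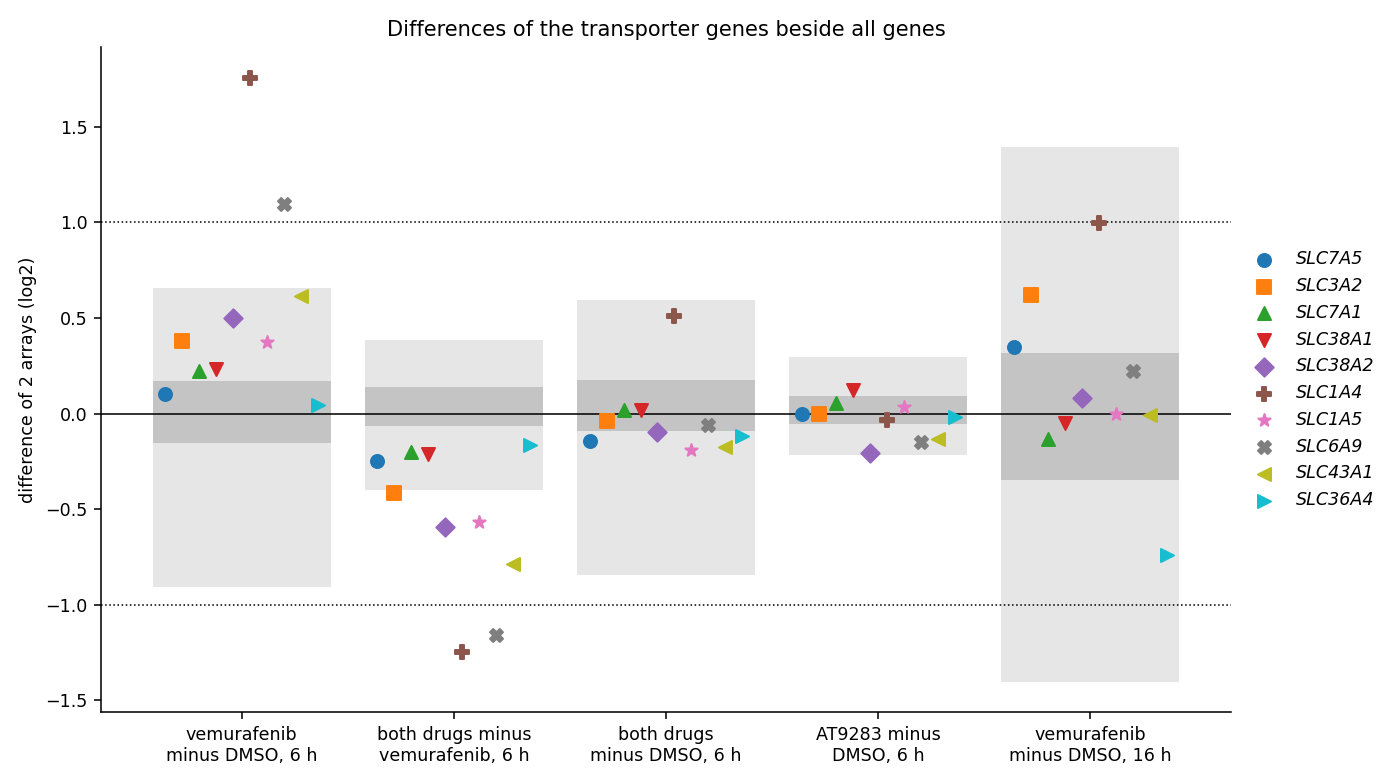
Difference of 2 arrays on the log2 scale for the 10 genes in 5 comparisons, over the middle 95% (light) and middle 50% (dark) of all genes at the floor, with the size rule dotted. The 10 points lie above 0 for vemurafenib minus DMSO at 6 h and below 0 for the combination minus vemurafenib, and they spread around 0 for AT9283 minus DMSO and at 16 h. SLC6A9 is drawn although it lies below the floor.

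Relative to DMSO at 6 h, the combination lay near the control for the transporters other than SLC1A4. The 10 differences ran from -0.19 (SLC1A5) to 0.51 (SLC1A4), with a median of -0.08. In 7 of the 10 genes the combination lay below DMSO, and in 3, SLC1A4, SLC7A1 and SLC38A1, between DMSO and vemurafenib. Of the 7 at the floor 5 were below 0, against 40.2% of 9076 genes. None of these 7 passed the size rule, against 0.639% of genes higher and 1.93% lower. That is near the share of all genes. SLC1A4 kept 29.2% of its vemurafenib difference in the combination, but 15.6% when its control was the mean of the DMSO arrays at both times, and the combination and DMSO values were all below the floor. Against DMSO at 6 h its other 3 probe sets with a vemurafenib difference of at least 0.5 kept 24.2% to 43.4%. On these the combination lay above DMSO by 0.26 to 0.97, with both values again below the floor. ATF4 minus its DMSO level was 0.61 in the combination and 0.99 under vemurafenib.

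A wider list of 39 other genes, of amino acid transporters and their relatives, was read in the same way. Of these 35 were measured and 14 were at the floor on some array. Under vemurafenib at 6 h 1 of 13 at the floor rose, 1 fell, and 6 were above 0, with a median of -0.04. Of all genes at the floor, 1.03% rose, 2.14% fell and 53.8% were above 0. SLC7A11, the cystine and glutamate exchanger that shares the heavy chain SLC3A2, rose, with 8.54 in the combination, 9.62 under vemurafenib, 7.82 under AT9283 and 7.71 in DMSO at 6 h, and 9.38 under vemurafenib and 8.07 in DMSO at 16 h. Vemurafenib stood highest at both times. Its differences were 1.91 at 6 h and 1.31 at 16 h, and it fell by 1.08 in the combination relative to vemurafenib. It was the 1 gene of 13 to pass in that comparison, against 0.322% of genes lower and 0% higher. The other genes over the size rule fell under vemurafenib. SLC43A3, a relative of SLC43A1 that carries purine bases, had 8.63 under vemurafenib and 9.73 in DMSO at 6 h, and 7.33 under vemurafenib and 10.05 in DMSO at 16 h. It was the 1 gene of the list that fell at 6 h. The glutamate transporter SLC1A1 had 4.72 under vemurafenib and 6.29 in DMSO at 16 h, and the arginine transporter SLC7A2 had 5.25 under vemurafenib and 6.46 in DMSO. At 16 h 1 of 14 rose and 3 fell, against 5.19% of genes higher and 5.79% lower. SLC1A1, among those that fell, reached the floor only on the DMSO array at 16 h. In the combination minus vemurafenib 5 of 13 were below 0, against 42% of genes, with a median of 0.10.

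**Figure D4:**
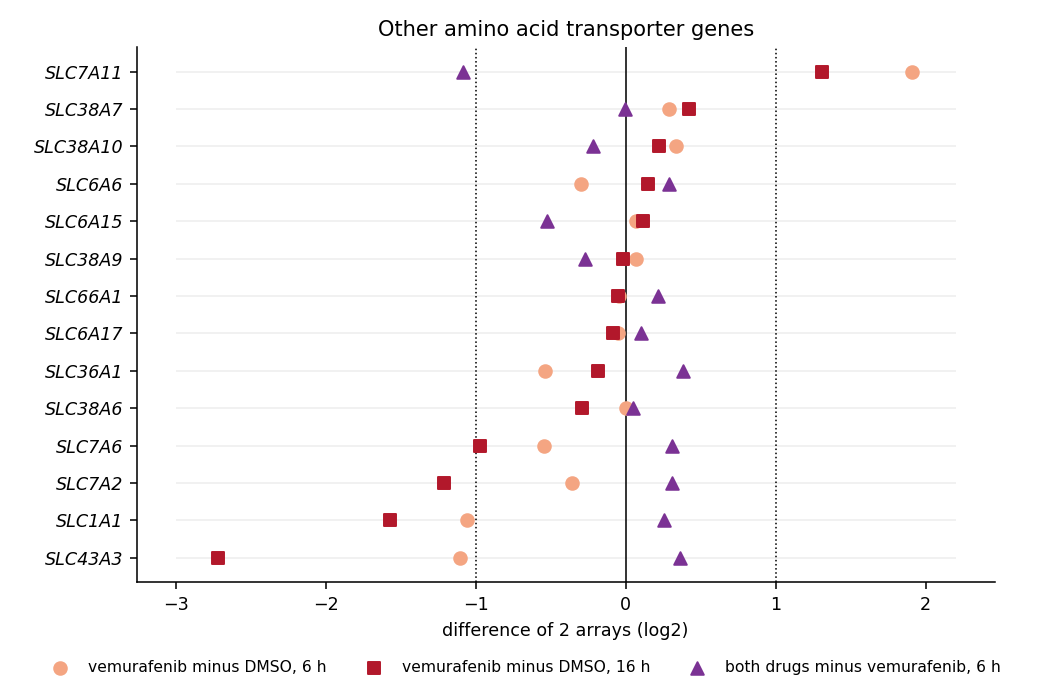
Differences on the log2 scale of the 14 genes of the wider list at the floor on some array, ordered by vemurafenib minus DMSO at 16 h, with the size rule dotted. SLC7A11 is the only gene right of the upper line, and SLC43A3 lies furthest left at -2.72. SLC1A1 at 6 h lies past the rule but below the floor, and is not counted.

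Among 9706 genes at the floor on some array, those whose pattern over the 6 arrays was most like that of SLC1A4 were RPL41 (Pearson r 0.996), MBNL2 (0.987) and ERMARD (0.984), where the arrays share treatments and normalization and the values are a description. RPL41, a ribosomal protein gene, moved by only 0.05 under vemurafenib at 6 h. MBNL2, a splicing regulator, differed by 0.85 under vemurafenib at 6 h, by 0.39 at 16 h and by -0.53 in the combination minus vemurafenib. Among the transporters the r with SLC1A4 ran from -0.46 (SLC36A4) to 0.89 (SLC38A2 and SLC6A9).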

How the data were processed

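The data were 6 Affymetrix arrays of A375 cells. The authors deposited linear probe set intensity. RMA is named in the submitters' processing notes, with no version. The deposited values were taken to log2 here. Of 54675 probe sets, 41097 had 1 gene symbol in the platform annotation, 1801 several and 11777 none listed, and only the first were named. In 6 blocks the 6 h values sat on other rows than the 16 h values (1118 probe sets, r 0.455 between the DMSO arrays against 0.992 elsewhere), which were left out with 62 control probe sets. No probe set of the 10 transporters was among them. Each comparison was made over the 19676 genes and counted over those whose higher array reached the floor. Limma 3.58.1 in R 4.3.3 used a trended prior, genes with at least 1 array at log2 6 and Benjamini-Hochberg adjustment over all genes tested. The limma fit and the size rule were run on simulated arrays with independent noise and the same drug effect at both times. That run does not cover a drug effect that changes with time, which the residual of the fit here holds.

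The members and lists were chosen with earlier results of these data known. Named genes are the 10 members, every SLC1A4 probe set, ATF4 and MYC, other transporters over the size rule, and the 3 genes most like SLC1A4. Other probe sets of SLC7A1, SLC38A1, SLC38A2 and SLC36A4 were named after their values were seen. Alternatives covered probe set choice, scaling, offset, floor, size rule, control array and fit. Promoter sequences came from RefSeq tables of GRCh38.p14.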

Additional observations from a re-analysis of the deposited data

Results flagged for a closer look

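These 4 values were singled out because the same contrast pointed in opposite directions in 2 settings, with effects at least 0.5 apart. None of these differences was tested, since each effect is a difference of single arrays. SLC36A4 had a vemurafenib difference of -0.74 at 16 h and 0.05 at 6 h, a change of -0.78. SLC43A1 had -0.01 at 16 h and 0.61 at 6 h, a change of -0.62. The vemurafenib difference of SLC43A1 was -0.04 with AT9283 and 0.61 without it, apart by -0.66. That of SLC1A5 was -0.23 with AT9283 and 0.37 without it, apart by -0.60. In each of the 4, 1 of the opposed effects was smaller in size than the SD of 0.244 of the DMSO pair. SLC43A1 reached the floor only on the vemurafenib array at 6 h.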

How the results depend on the processing

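No paired analysis was possible because each condition had 1 array and the labels give no replicate numbers to pair; the limma fit had time as its block. Vemurafenib minus DMSO at 6 h was above 0 for all 10 transporters, with a median of 0.304 to 0.385, under each alternative run. All 10 were below 0 in the combination minus vemurafenib under each alternative but 1. Without shared or cross-hybridizing probe sets SLC7A1, on 212290_at, was at 0.10. In that setting SLC7A5, SLC3A2, SLC38A2 and SLC6A9 stayed on probe sets marked _s_at or _x_at, since they have no others, so they were not rechecked. The counts over the size rule rest on few genes. Without those probe sets 0 genes rose under vemurafenib at 6 h and 0 fell in the combination minus vemurafenib, since SLC1A4 is then at 0.04 and -0.43. With a floor of log2 7 both counts were also 0, as they were with the floor on the mean of the 6 arrays (chosen after seeing the data), and with no floor both were 2, SLC6A9 being added. With a threshold of 0.5 the counts were 2 higher at 6 h, 2 higher and 1 lower at 16 h, 4 lower in the combination minus vemurafenib, 1 lower in DMSO at 16 h minus 6 h and 3 lower in the change between the times. At 16 h 1 gene rose with quantile normalization, and likewise when the control was the mean of both DMSO arrays. The limma fit called 32 genes higher and 81 lower, but 4 and 28 with the mean of all probe sets, 8 and 35 with no trend in the prior, 59 and 114 with quantile normalization, and 140 and 323 over all 6 arrays; no transporter was called in any of these, and with the 6 arrays SLC1A4 was at 1.10. With the mean of all probe sets 57 genes passed the size rule higher and 129 lower under vemurafenib at 6 h, against 94 and 195. Signs near 0 were not stable: at 16 h 4 to 7 of the 10 were above 0, and for AT9283 minus DMSO 3 to 6. Intensities near background limit SLC1A4, SLC6A9 and SLC43A1.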
